A study of Mus musculus with 12 samples.

Results

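Genes of the YAP and TEAD pathway were described in primary mouse hepatocytes, liver cells isolated and studied outside the animal, in which the transcription factor CEBPA had been deleted or overexpressed. The 10 genes Ccn1, Ccn2, Ankrd1, Amotl2, Ajuba, Lats2, Yap1, Wwtr1, Tead1 and Vgll4 were chosen by symbol, as 10 of the 55450 genes quantified by RNA-Seq in 12 libraries. The study compared hepatocytes with and without CEBPA to find the genes that depend on it. WT hepatocytes had the genotype Cebpafl/fl, floxed alleles without Cre, and KO hepatocytes were Cebpa{delta}Alb, in which Cre driven by the albumin promoter removed those alleles. GFP hepatocytes received Ad-GFP, an adenovirus expressing green fluorescent protein, and OE hepatocytes received Ad-m-Cebpa (Overexpression), which expresses mouse Cebpa. Each group held 3 libraries. The labels give no age, no duration of adenovirus treatment and no host genotype for the adenovirus cultures, and the study used male mice. Albumin-Cre acts from fetal life onward in hepatocytes and their precursors, so KO cells had been without Cebpa for long, whereas the adenovirus acts in cells already in culture. Libraries are labelled as biological replicates without saying whether they came from separate mice, so p values may measure only the spread between preparations or cultures.

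YAP, encoded by Yap1, and TAZ, encoded by Wwtr1, are transcriptional coactivators that have no DNA-binding domain and act through the TEAD factors. The Hippo kinases LATS1 and LATS2 phosphorylate both, which holds them in the cytoplasm, and VGLL4 competes with them for TEAD. In the liver this pathway limits organ size and keeps hepatocytes from taking on biliary features, and YAP activity is known to rise when hepatocytes are plated on a stiff surface. Ccn1, Ccn2 and Ankrd1 are standard readouts of YAP and TAZ, whereas Amotl2, Ajuba and Lats2 are targets whose products act back on the pathway.

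The TEAD recognition sequence is shown first, because TEAD binding to DNA is the step through which the pathway reaches its targets. The genes were chosen by symbol as known targets and regulators of this pathway, so matches are not independent of that choice. The RefSeq promoter table (GRCm38.p6) held windows for 8 of the 10 genes, 10 windows in all, each read here over the 250 bases before the transcription start. Ccn2 and Tead1 had none. Windows that overlap no annotated exon follow for a secreted target, a feedback target and a coactivator, written 5′ to 3′ on the minus strand, on which these genes lie, with the TEAD sequence GGAATG or its reverse complement CATTCC in capitals.

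Ccn1, chr3:145649986-145650235: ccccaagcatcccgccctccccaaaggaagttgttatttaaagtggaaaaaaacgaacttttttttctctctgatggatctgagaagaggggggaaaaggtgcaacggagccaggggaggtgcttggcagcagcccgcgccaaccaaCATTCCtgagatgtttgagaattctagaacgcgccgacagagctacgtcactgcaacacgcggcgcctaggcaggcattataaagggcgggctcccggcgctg

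Ajuba, chr14:54577662-54577911: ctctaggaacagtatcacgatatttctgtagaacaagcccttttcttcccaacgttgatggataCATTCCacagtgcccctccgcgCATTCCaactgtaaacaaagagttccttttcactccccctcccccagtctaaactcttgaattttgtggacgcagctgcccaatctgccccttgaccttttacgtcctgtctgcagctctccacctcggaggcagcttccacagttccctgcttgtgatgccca

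Wwtr1, chr3:57575911-57576160: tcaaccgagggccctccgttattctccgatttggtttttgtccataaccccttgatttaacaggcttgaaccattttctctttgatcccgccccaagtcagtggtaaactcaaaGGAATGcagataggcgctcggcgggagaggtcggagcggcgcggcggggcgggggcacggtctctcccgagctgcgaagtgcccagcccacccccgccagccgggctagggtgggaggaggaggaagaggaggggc

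GGAATG on either strand was found in 7 of the 8 genes with a window, every one but Lats2, against 12.64% of the 32851 windows of this length in the table. The match in Ccn1 began 103 bases before the start, those in Ajuba 186 and 164 bases before, and that in Wwtr1 136 bases before. TTNNGNAA, searched on both strands as the core of the CEBP sequence, was found in Lats2 alone of the 8, against 36.85% of windows. Lats2 and Wwtr1 had 2 windows each, so a count of genes and a share of windows are not the same measure. Both Lats2 windows, chr14:57746124-57746373 and chr14:57734419-57734668, lie inside the annotated gene, which begins at 57758388 on the minus strand. Those of Amotl2, Ankrd1 and Vgll4 also lie inside their genes, nearer the start. TGANTCA, the AP-1 sequence, and the CArG box bound by SRF were in none of the 8, against 6.75% and 1.47% of windows. None of these motifs overlaps another in the printed windows, and a match describes the letters in a window and nothing about binding.

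Library totals ran from 20160081 to 23304230 counts. Levels are given in CPM, read counts scaled to a common library size by TMM over the 12 libraries, with the standard deviation (SD), and levels of different genes are compared only in TPM, which is scaled to gene length. Cebpa itself was at 485.4, 364.7 and 456.8 CPM in WT against 1.51, 0.393 and 0.261 CPM in KO. It was at 30.4, 32.2 and 34.4 CPM in GFP against 8524, 8678 and 8968 CPM in OE, where reads from the virus cannot be told apart from those of the mouse gene. The labelled cell type was checked with 8 hepatocyte markers, Alb and Ttr among them, all of which were detected in every group. Their summed level was 160000 to 164000 CPM in WT and 179000 to 216000 CPM in KO, but 14600 to 15000 CPM in GFP and 6500 to 6830 CPM in OE. Most of it was Alb, at 117100, 152800, 11260 and 4854 CPM on average in WT, KO, GFP and OE. Cps1 went the other way between the adenovirus groups, from 148.9 CPM in GFP to 489.2 CPM in OE. KO replicate 3 stood farthest from the others of its group, and results for KO are given without it where that changes a call. In bulk RNA, fewer cells of a type and less RNA per cell cannot be told apart.

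OE was compared with GFP to see how the pathway genes stood when Cebpa was raised. All 10 genes differed by edgeR's quasi-likelihood test (adjusted p under 0.05 over 14889 genes), with Amotl2, Lats2, Yap1, Wwtr1 and Tead1 higher and Ccn1, Ccn2, Ankrd1, Ajuba and Vgll4 lower. The secreted and nuclear readouts Ccn2 and Ankrd1 were thus lower than in GFP in the cells in which the coactivators Yap1 and Wwtr1 were higher. Ccn1, also a readout, was lower by less. At 8.4 and 8.2 CPM in OE, Ccn2 and Ankrd1 still stood above their WT means of 0.249 and 0 CPM. Most genes passed this test, 43.9% of them higher and 42.7% lower, so the 5 and 5 of the 10 genes are close to the background in number. The 3 libraries of each group lay so close together that even differences of under 10% passed. Over the 14889 genes, every OE library lay above every GFP library for 6620 and below for 6321. A lack of overlap was thus common to most genes and does not set these 10 apart.

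Ccn2 encodes connective tissue growth factor, a secreted matricellular protein. It was at 586.1, 628.7 and 587.1 CPM in GFP against 8.63, 8.05 and 8.56 CPM in OE. Every OE library lay far below every GFP library, and the difference was 71.8-fold (log2 −6.17 ± 0.05, standard error (SE), n = 3 per group, edgeR adjusted p = 6.55e-19). In TPM, Ccn2 was the highest of the 10 genes in GFP at 634.3 ± 30.1 (SD) and the lowest in OE at 11.1 ± 0.560. Its gene (ENSMUSG00000019997.11, mm10 chromosome 10, 24595442 to 24598683, plus strand) overlaps an antisense gene, Gm15270, whose level of 0.951 ± 0.303 CPM in GFP was small beside that of Ccn2.

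Ccn1 (ENSMUSG00000028195.4, chromosome 3, 145646976 to 145649981, minus strand) encodes a secreted protein of the same family and differed little. It was at 138.8, 141.1 and 140.6 CPM in GFP against 110.2, 107.2 and 113.5 CPM in OE. The groups did not overlap, and the level in OE was 1.28-fold lower (log2 −0.36 ± 0.03 SE, edgeR adjusted p = 3.24e-08). This difference depended on the scale, since limma on log2(TPM + 1) put it at −0.03 (adjusted p = 0.503). The ratio of Ccn1 to Ccn2 in TPM was 0.279 ± 0.0105 (SD) in GFP and 15.6 ± 0.719 in OE, so the order of these family members was turned around. The ratio did not overlap between the groups, and the exact permutation test, 2-sided with 3 libraries against 3, gave the smallest p it can reach, 0.1.

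Ankrd1 (ENSMUSG00000024803.9, chromosome 19, 36111961 to 36120099, minus strand) encodes an ankyrin repeat protein known from stressed muscle and heart. It was at 24.9, 22.9 and 22.7 CPM in GFP against 8.34, 7.57 and 8.83 CPM in OE. The OE libraries were all lower, by 2.87-fold (log2 −1.52 ± 0.07 SE, edgeR adjusted p = 3.22e-11).

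The feedback genes did not move together. Ajuba (ENSMUSG00000022178.11, chromosome 14, 54567472 to 54577558, minus strand), whose LIM-domain product restrains LATS kinases, was at 124.4, 124.8 and 124.8 CPM in GFP against 54.6, 54.6 and 52.1 CPM in OE. It was 2.33-fold lower in OE, with no overlap (log2 −1.22 ± 0.03 SE, edgeR adjusted p = 2.05e-14). Amotl2 (ENSMUSG00000032531.15, chromosome 9, 102716672 to 102733418, plus strand), an angiomotin family member that binds YAP at cell junctions, was at 62.7, 56.7 and 59.8 CPM in GFP against 107.3, 106.2 and 105.2 CPM in OE. It was 1.77-fold higher (log2 0.82 ± 0.04 SE, edgeR adjusted p = 1.38e-11). Lats2 (ENSMUSG00000021959.16, chromosome 14, 57689662 to 57758388, minus strand), the kinase and a YAP target in its own right, was at 46.5, 46.0 and 47.6 CPM in GFP against 94.1, 95.7 and 102.0 CPM in OE. It was 2.07-fold higher (log2 1.05 ± 0.04 SE, edgeR adjusted p = 1.39e-12). Both Amotl2 and Lats2 stood above GFP in every OE library, while Ajuba stood below.

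The coactivators rose together. Yap1 (ENSMUSG00000053110.13, chromosome 9, 7931999 to 8004596, minus strand) was at 121.2, 119.3 and 119.5 CPM in GFP against 235.5, 229.3 and 236.6 CPM in OE, 1.94-fold higher (log2 0.95 ± 0.03 SE, edgeR adjusted p = 2.12e-13). Wwtr1 (ENSMUSG00000027803.14, chromosome 3, 57455649 to 57575910, minus strand) was at 55.2, 54.9 and 58.3 CPM in GFP against 129.5, 123.8 and 126.5 CPM in OE, 2.24-fold higher (log2 1.16 ± 0.03 SE, edgeR adjusted p = 1.01e-13). Neither gene's groups overlapped. Their ratio in TPM was 2.56 ± 0.0887 (SD) in GFP and 2.61 ± 0.0775 in OE, which overlapped (exact permutation p = 0.6). Their summed TPM was 102.5 ± 1.55 in GFP and 290.7 ± 2.70 in OE.

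Tead1 and Vgll4, the DNA-binding partner and its repressive cofactor, differed least by counts, though not Tead1 in TPM. Tead1 (ENSMUSG00000055320.17, chromosome 7, 112679318 to 112906807, plus strand) was at 74.9, 72.0 and 73.5 CPM in GFP against 84.0, 80.0 and 85.6 CPM in OE, a log2 difference of 0.17 ± 0.03 SE (edgeR adjusted p = 0.00017). Vgll4 (ENSMUSG00000030315.15, chromosome 6, 114860628 to 114969994, minus strand) was at 38.5, 40.1 and 38.6 CPM in GFP against 35.8, 36.3 and 36.7 CPM in OE, a log2 difference of −0.12 ± 0.04 SE (edgeR adjusted p = 0.0107). For Vgll4 the direction depended on the scaling, since it was 0.02 (adjusted p = 0.597) with library totals and 0.13 (adjusted p = 0.0341) with limma on log2(TPM + 1). The call of Vgll4 was also lost with DESeq2 (adjusted p = 0.22), the stricter filter (0.0891), the fit of all 12 libraries (0.189) and without OE replicate 1 (0.0579). Vgll4 per unit of Yap1 and Wwtr1, in TPM, was 0.511 ± 0.0133 (SD) in GFP and 0.197 ± 0.00416 in OE, with no overlap.

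**Figure D1:**
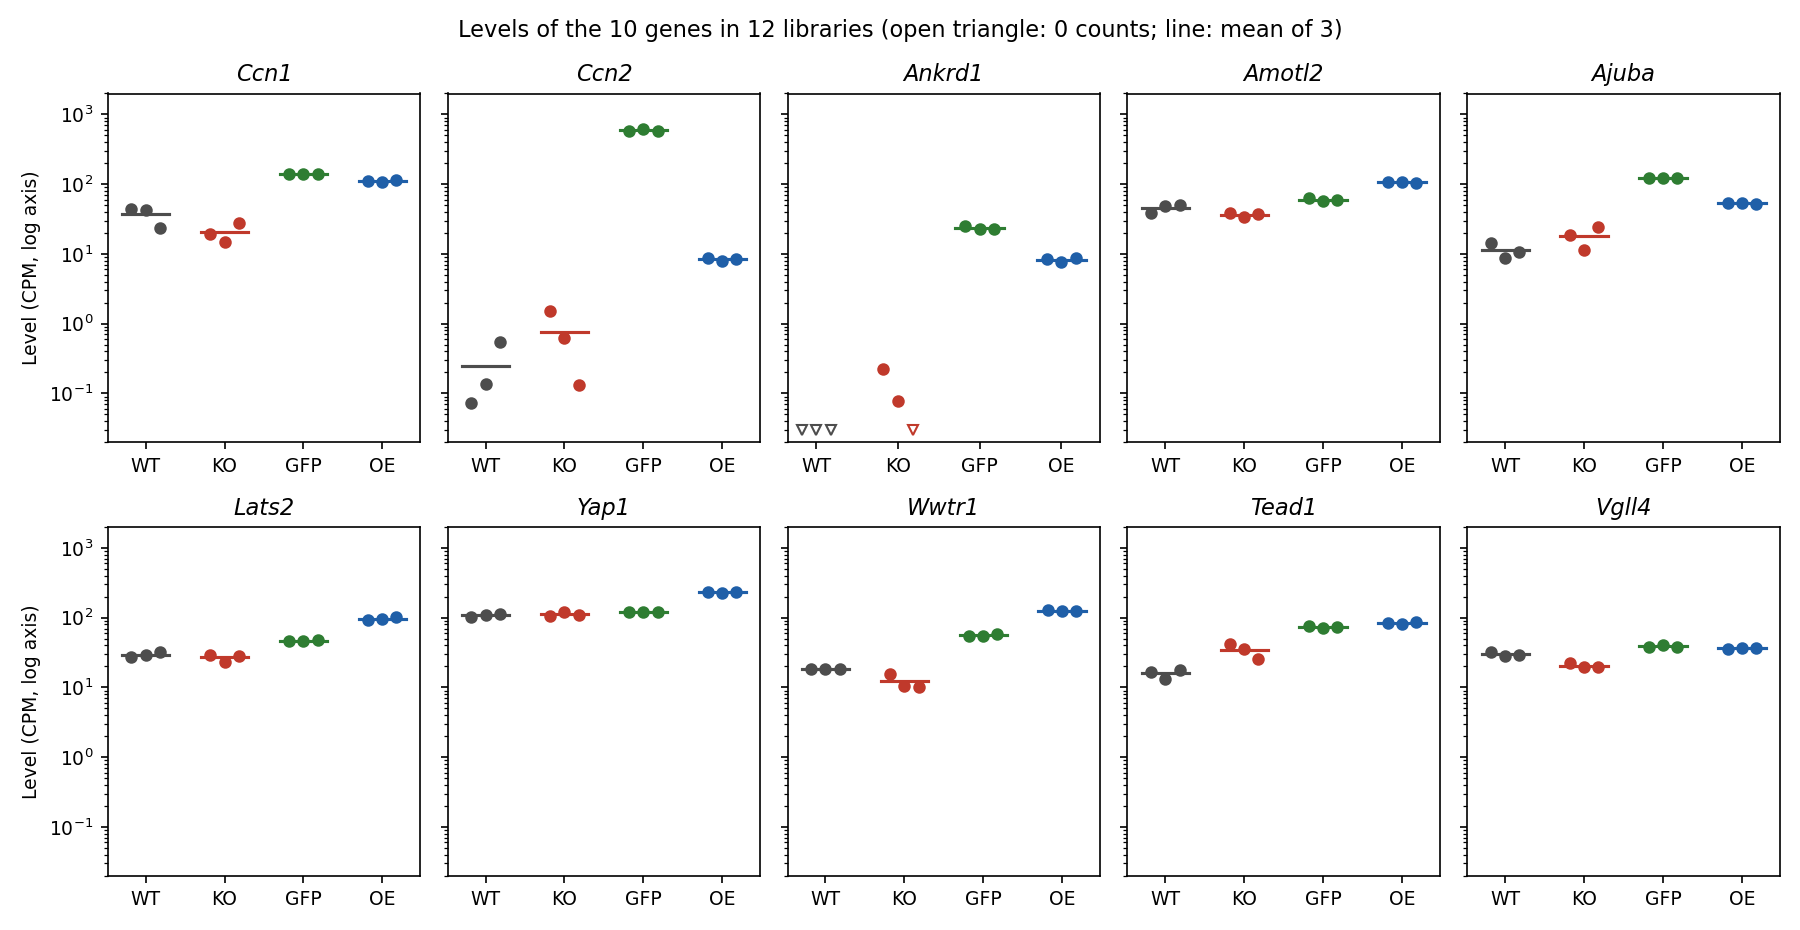
Level of each of the 10 genes (CPM, log axis) in the 3 libraries of WT, KO, GFP and OE hepatocytes, with a line at each group mean and an open triangle for a library with 0 counts. Ccn2 stood at 600.6 CPM on average in GFP and at 8.41 CPM in OE, while Yap1, Wwtr1, Lats2 and Amotl2 were highest in OE.

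Yap1 and Tead1 transcripts also differed in length between GFP and OE. The files give, per gene and library, the mean length of its transcripts weighted by their estimated abundance. For Tead1 it was 8530, 7881 and 7942 bases in the GFP libraries and 5467, 5322 and 5337 bases in OE, a fall of 33.8% in the mean. For Yap1 it was 4001, 3904 and 3941 bases in GFP and 3410, 3287 and 3437 bases in OE, a fall of 14.5%. Both sets of OE libraries lay below all GFP, WT and KO libraries. Of the 9 of these genes with more than 1 annotated transcript and enough counts, these 2 were lower in all OE libraries and by at least 10%, against 8.79% of the 9139 eligible genes. A shorter effective length raises TPM for the same count, and Tead1 differed by 1.07 on the log2(TPM + 1) scale (limma adjusted p = 6.71e-06) against 0.17 by counts. Wwtr1, at a mean length of 4693 bases in both groups, differed by 1.45 on that scale against 1.16 by counts. The part of length in the gap for Tead1 was not tested. Tead1 made up 24.97% to 27.8% of the summed TPM of Tead1 to Tead4 in the GFP libraries and 46.0% to 48.2% in the OE libraries. The size of this shift depends on the scale, since Tead1 differed by less by counts than in TPM.

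**Figure D2:**
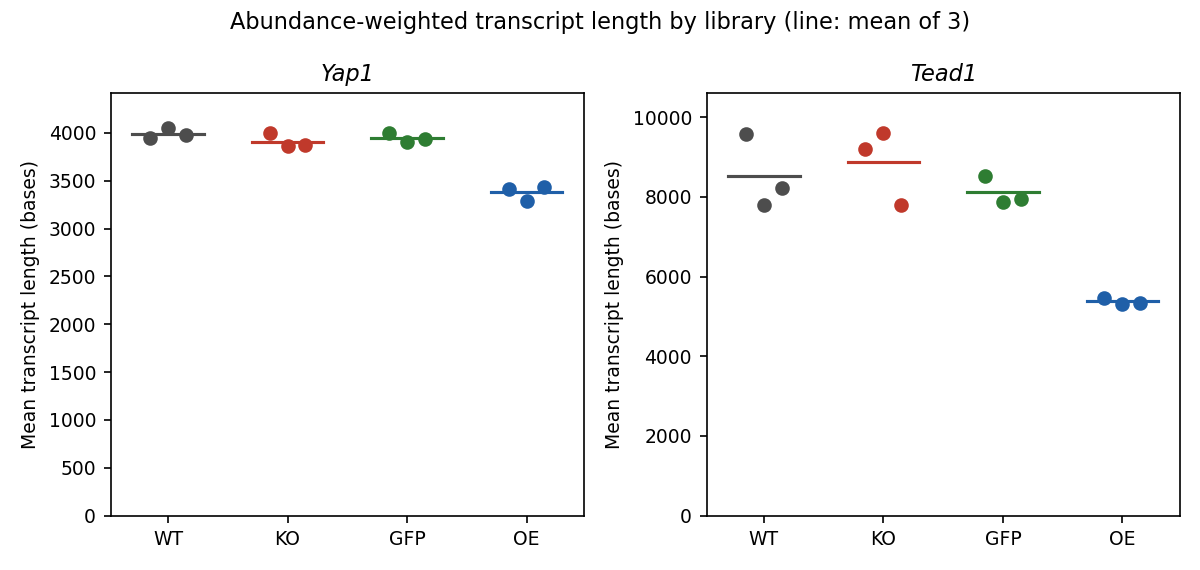
Abundance-weighted mean transcript length in bases of Yap1 and Tead1 in each library, with a line at the mean of 3. The OE libraries lie lowest for both genes, at a mean of 3378 bases for Yap1 and 5375 bases for Tead1.

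KO was compared with WT to see how the genes stood without Cebpa. None of the 8 genes that could be tested passed edgeR's test (adjusted p under 0.05 over 11846 genes), in which 0.692% of genes were higher and 1.02% lower. At an unadjusted p under 0.05 there were 5, DESeq2 called 2 and limma on log2(TPM + 1) called 0. Tead1 and Vgll4 came closest. Ccn2 and Ankrd1 were below the filter on low counts, with 11 and 0 counts over the WT libraries and 30 and 4 over the KO libraries. They were near the detection limit in both groups, and no fold is given. Over the 11846 genes, every KO library lay above every WT library for 1068 and below for 1271.

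Tead1 was at 16.6, 13.4 and 18.04 CPM in WT against 41.6, 35.3 and 25.7 CPM in KO. Every KO library lay above every WT library, with a log2 difference of 1.11 ± 0.21 SE (edgeR adjusted p = 0.0527), which passed with DESeq2 (adjusted p = 0.000218) and without KO replicate 3 (1.29, adjusted p = 0.0156). Over all 15 alternatives its adjusted p ran from 0.000218 to 0.204. Vgll4 was at 32.3, 28.6 and 29.4 CPM in WT against 22.5, 19.6 and 19.8 CPM in KO. Every KO library was lower, with a log2 difference of −0.53 ± 0.11 SE (edgeR adjusted p = 0.0658), which passed with DESeq2 (adjusted p = 0.0144) and ranged over the alternatives from 0.00103 to 0.271. These values for Tead1 and Vgll4 fell short of the threshold and are given as values, not as changes.

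Wwtr1 was at 18.4, 18.2 and 18.1 CPM in WT against 15.8, 10.4 and 10.3 CPM in KO, without overlap (log2 −0.57 ± 0.18 SE, edgeR adjusted p = 0.226). Yap1 was at 101.2, 107.7 and 114.0 CPM in WT against 105.3, 120.8 and 108.0 CPM in KO, with overlap (log2 0.07 ± 0.10 SE, edgeR adjusted p = 0.805). The ratio of Yap1 to Wwtr1 in TPM was 6.63, 6.93 and 7.48 in WT and 7.90, 14.2 and 12.8 in KO. It did not overlap between the groups, and the exact permutation p was 0.1, the smallest the design allows, so it cannot pass.

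Among the targets, Ccn1 was at 44.1, 43.3 and 23.6 CPM in WT against 19.5, 15.1 and 28.1 CPM in KO, which overlapped (log2 −0.81 ± 0.30 SE, edgeR adjusted p = 0.286). Ajuba was at 14.4, 8.68 and 10.8 CPM in WT against 18.8, 11.2 and 23.97 CPM in KO (log2 0.69 ± 0.30 SE, edgeR adjusted p = 0.367). WT replicate 3 was the low library for Ccn1, and KO replicate 3 the high one for Ajuba. Amotl2 was at 46.1 ± 6.76 CPM (SD) in WT and 36.8 ± 2.99 in KO (edgeR adjusted p = 0.348). Lats2 was at 29.7 ± 2.16 CPM in WT and 26.9 ± 3.01 in KO (edgeR adjusted p = 0.643).

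**Figure D3:**
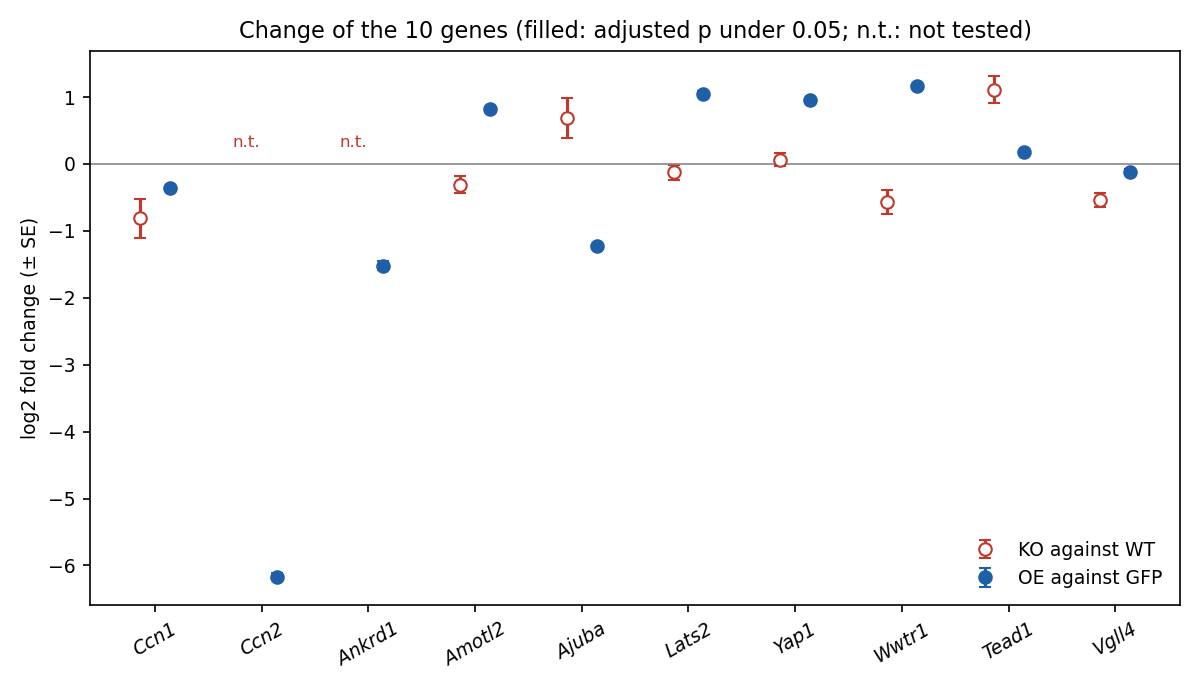
Log2 fold change with SE of each gene in KO against WT and in OE against GFP, filled where the edgeR adjusted p was under 0.05; n.t. marks genes not tested. Ccn2 fell by 6.17 in OE against GFP, and the errors of KO against WT are the wider ones.

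The effect of Cebpa gain was set against that of Cebpa loss in a fit of all 12 libraries, as the OE against GFP difference less the KO against WT difference. It passed for 9 of the 10 genes, 5 higher and 4 lower, where 25.9% of the 15326 genes tested were higher and 28.1% lower. The genes for which the gain stood above the loss were Amotl2, Lats2, Yap1, Wwtr1 and Vgll4, and those for which it stood below were Ccn2, Ankrd1, Ajuba and Tead1. For Tead1 the direction turned with limma on log2(TPM + 1) (0.38, adjusted p = 0.0371) and on log2(TPM + 0.1) (0.15, adjusted p = 0.519). Ankrd1 has no estimate here, since it was at 0 in all WT libraries, and it did not pass without KO replicate 1 (adjusted p = 0.11). Ccn1 did not pass (log2 0.48 ± 0.32 SE, edgeR adjusted p = 0.234), though it did without WT replicate 3 (0.71, adjusted p = 0.0299) and without KO replicate 3 (0.75, adjusted p = 0.0427). For Wwtr1 the difference was 1.76 ± 0.18 SE (edgeR adjusted p = 5.64e-06), with KO values below WT and OE values above GFP. The fit holds 1 dispersion per gene for both experiments, and the biological coefficient of variation was 20.4% over the WT and KO libraries but 4.04% over the GFP and OE libraries.

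The control groups themselves differed. GFP was set against WT, which shares its libraries with the comparisons above, and 9 of the 10 genes were higher and none lower (edgeR, adjusted p under 0.05), against 45.0% higher and 38.4% lower of 13760 genes. GFP cells received an adenovirus and WT cells did not, and the host genotype and handling of the adenovirus cultures are not given in the labels, so these cannot be told apart. Cebpa was 13.6-fold lower in GFP than in WT (log2 −3.77 ± 0.12 SE, edgeR adjusted p = 3.14e-08).

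Ccn2 was 2297-fold higher in GFP (log2 11.17 ± 0.25 SE, edgeR adjusted p = 5.44e-09), from 0.072, 0.137 and 0.539 CPM in the WT libraries, a level set by 11 counts. Over the alternatives its log2 difference ran from 9.03 to 12.39, the highest without WT replicate 3. Ankrd1 was at least 340-fold higher in GFP than a floor of 3 counts over the WT group. Ajuba was 10.96-fold higher (log2 3.45 ± 0.15 SE), Tead1 4.54-fold higher (2.18 ± 0.10) and Ccn1 3.75-fold higher (1.91 ± 0.21). Wwtr1 was 3.05-fold higher (log2 1.61 ± 0.06 SE), while Lats2, Vgll4 and Amotl2 were higher by log2 0.64 ± 0.07, 0.36 ± 0.07 and 0.36 ± 0.10. Among the feedback genes, Ajuba thus stood above Ccn1 in fold, and Lats2 and Amotl2 below it, though genes were not tested against each other. Yap1 was the exception, with log2 0.14 ± 0.06 SE (edgeR adjusted p = 0.0527), close to the median of all genes tested, 0.13. It passed in 8 of 15 alternatives, among them DESeq2 (adjusted p = 0.0118) and no filter (0.00922), and its adjusted p over all of them ran from 5.43e-08 to 0.128. With library totals in place of TMM that median was 1.37 and Yap1 was 1.38 higher (adjusted p = 5.43e-08), so Yap1 stayed near the median of all genes under both scalings, and 83.4% in place of 53.9% of the calls among all genes were then higher.

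The order of the genes in TPM differed from group to group. Yap1 was the highest of the 10 in WT, KO and OE, at 24.4 ± 1.89, 25.3 ± 2.19 and 210.2 ± 3.05 TPM (SD, n = 3). In WT it was followed by Ccn1 at 17.3 and Vgll4 at 16.0, which overlapped, then Amotl2 at 11.01 and Lats2 at 5.55, Wwtr1 at 3.48 and Ajuba at 3.34, which overlapped, and Tead1 at 1.66. In KO the order of the highest was Yap1, Vgll4 at 10.7, Ccn1 at 9.65 and Amotl2 at 8.63, where Ccn1 overlapped both Vgll4 and Amotl2, which did not overlap each other. In GFP Ccn2 led, followed by Ccn1 at 176.7, Ajuba at 97.6, Yap1 at 73.7 and Vgll4 at 52.4 TPM, none of which overlapped. Below them stood Amotl2 at 38.3, Ankrd1 at 30.9, Wwtr1 at 28.8, Lats2 at 22.6 and Tead1 at 21.4, where Ankrd1 overlapped Wwtr1 and Lats2 overlapped Tead1. In OE Yap1 was followed by Ccn1 at 172.6, Amotl2 at 87.8, Wwtr1 at 80.6 and Lats2 at 62.9 TPM. No neighbours overlapped in OE, where Vgll4 at 57.2, Ajuba at 52.2, Tead1 at 46.0 and Ankrd1 at 13.3 came before Ccn2.

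The other pathway genes were described by lists. Among 19 Hippo kinases and upstream regulators, 9 were higher and 9 lower in OE than in GFP, near the 43.9% and 42.7% of all genes tested, with a median log2 difference of 0.15 against 0.01 over all genes. Frmd6, an upstream FERM-domain protein, was the most significant of them, at 12.2 ± 0.290 CPM (SD) in GFP and 51.4 ± 1.51 in OE (log2 2.06 ± 0.05 SE, edgeR adjusted p = 1.16e-14). Lats1, the second LATS kinase, was higher by 1.03 ± 0.03 (edgeR adjusted p = 3.95e-13), much as Lats2 was. Map4k4, a kinase that can act on LATS beside the MST kinases, fell by 1.11 in OE (edgeR adjusted p = 3.5e-14) and was higher by 0.77 ± 0.14 SE in KO (edgeR adjusted p = 0.0467). The rise of Map4k4 was the only call among 17 tested regulators in KO, beside 0.692% of all genes higher and 1.02% lower. The median of these regulators was 0.09 against 0.01 over all genes. Map4k4 missed the threshold in 11 of 15 alternatives, among them each of the 6 that leave out a library (adjusted p 0.0613 to 0.186). In KO, Amot and Amotl1, angiomotins like Amotl2, had log2 values of 0.48 and 1.16 (edgeR adjusted p = 0.276 and 0.292).

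The other TEAD and VGLL genes followed no common direction. Vgll3, a cofactor that binds TEAD, was at 1.11 ± 0.0910 CPM (SD) in GFP and 8.45 ± 0.243 in OE (log2 2.91 ± 0.12 SE, edgeR adjusted p = 6.22e-12). Tead2 fell by 0.83 (edgeR adjusted p = 3.65e-10), Tead3 was not called, and Tead4 had a log2 value of −0.20 (edgeR adjusted p = 0.0935) that turned to 0.06 with limma on log2(TPM + 1). In KO only Tead3 of the 6 passed the filter of the edgeR test, at 0.19 (adjusted p = 0.49). With DESeq2, with no filter and in the fit of all 12 libraries 4 of the 6 were tested and 1 was called higher, as was 1 of 2 without KO replicate 3. Tead2, chosen after its values were seen, held 1 count in each WT library and 125, 128 and 5 counts in the KO libraries, so KO replicate 3 stood apart. Summed over Tead1 to Tead4, TEAD TPM was 7.68 ± 0.641 (SD) in WT, 13.6 ± 3.05 in KO, 82.5 ± 3.25 in GFP and 98.2 ± 6.12 in OE. Neither pair of groups overlapped. In CPM, Tead1 was at 73.4 in GFP and 83.2 in OE, and Tead2 at 31.65 and 17.9. Tead3 was at 10.2 and 11.1 CPM, and Tead4 at 4.66 and 4.09 CPM. The higher sum in OE is thus a statement in TPM and not by counts. Of 13 such exact tests on ratios and sums between KO and WT or OE and GFP, the lowest p was 0.1, and 0.13 after Benjamini-Hochberg adjustment.

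**Figure D4:**
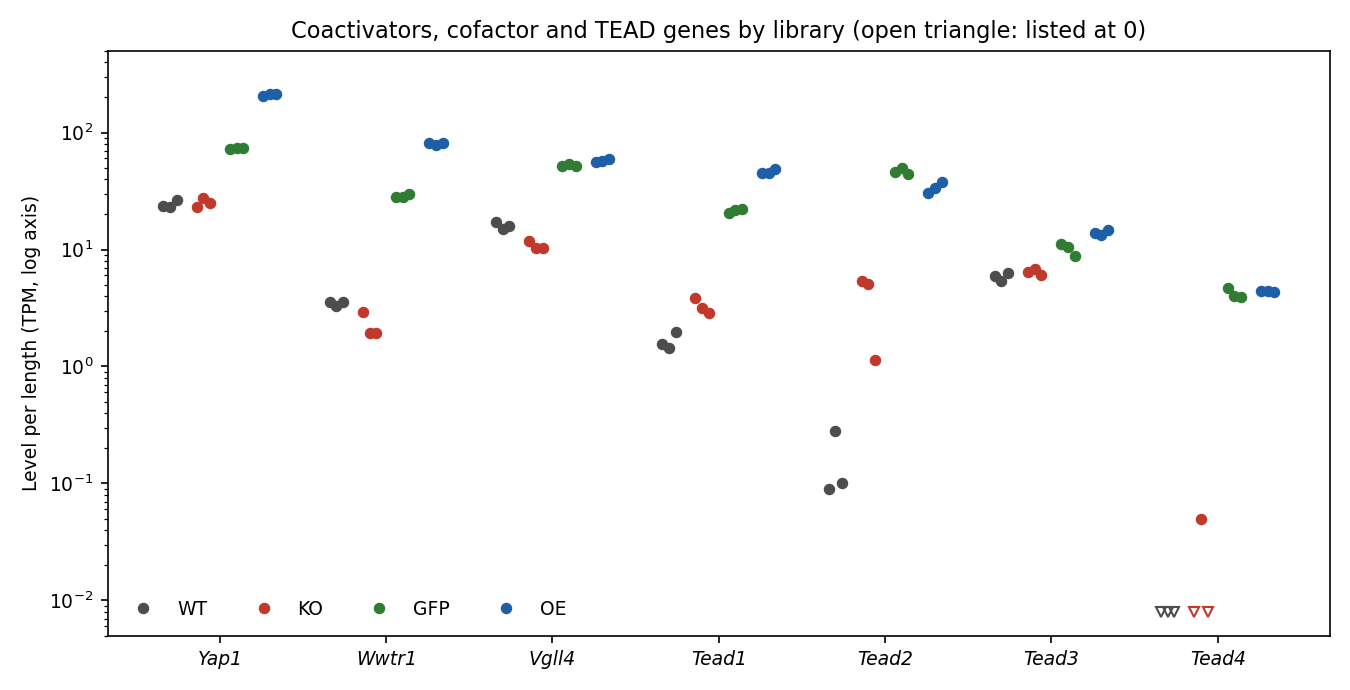
TPM (log axis) of the coactivators Yap1 and Wwtr1, the cofactor Vgll4 and Tead1 to Tead4 in each library, coloured by group, with an open triangle where a gene is listed at 0. Yap1 averaged 24.4 TPM in WT and 210.2 TPM in OE, but 107.6 and 233.8 in CPM, so the distance depends on the scale. The KO libraries of Tead2 are spread widely.

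Further targets of the YAP and TAZ signature, 20 genes of which 16 could be tested, were 10 higher and 5 lower in OE, beside 43.9% and 42.7% of all genes tested, with a median of 0.31 against 0.01 over all genes. Tgfb2, a secreted growth factor, fell by 2.07 in OE (edgeR adjusted p = 2.25e-13) and Fjx1, a Golgi kinase-related protein, by 1.90 (edgeR adjusted p = 1.04e-11). Asap1, an Arf GTPase-activating protein, was higher by 0.86 ± 0.03 SE (edgeR adjusted p = 8.71e-13). In KO, none of the 8 tested was called by edgeR, at a median of −0.09, and DESeq2 called 0, although 2 were at an unadjusted p under 0.05, Nt5e at −2.95 and F3 at −1.52 (adjusted p = 0.245 and 0.26). Crim1 was at 0.36 (adjusted p = 0.36). In GFP against WT 11 of 14 were higher and 1 lower, beside 45.0% and 38.4% of all genes, at a median of 3.11 against 0.13.

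A list of actin genes controlled by SRF and its cofactor MRTF was included, because Ccn1, Ccn2 and Ankrd1 are also known SRF targets. Of these 13 genes 12 were lower and 1 higher in OE, beside 42.7% and 43.9% of all genes tested, with a median log2 difference of −1.63 against 0.01 over all genes. Flna, a crosslinker of actin filaments, was at 942.9 ± 27.6 CPM (SD) in GFP and 217.9 ± 13.0 in OE, and Tpm1, a tropomyosin, was at 334.4 ± 3.38 and 108.6 ± 1.04 CPM. Tagln2, transgelin 2, fell by 2.12 in OE (edgeR adjusted p = 3.76e-16) and rose by 2.04 ± 0.23 SE in KO (edgeR adjusted p = 0.0111). It was the only one of 9 tested genes called in KO, beside 0.692% of all genes higher and 1.02% lower. The call of Tagln2 in KO was lost without WT replicate 1, 2 or 3 (adjusted p = 0.0755, 0.0696 and 0.0595). Vcl, vinculin, was the gene that was higher in OE, by 0.92, and had a log2 value of −0.44 in KO (edgeR adjusted p = 0.0689). In GFP against WT all 13 were higher, beside 45.0% of all genes, at a median of 3.81 against 0.13.

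**Figure D5:**
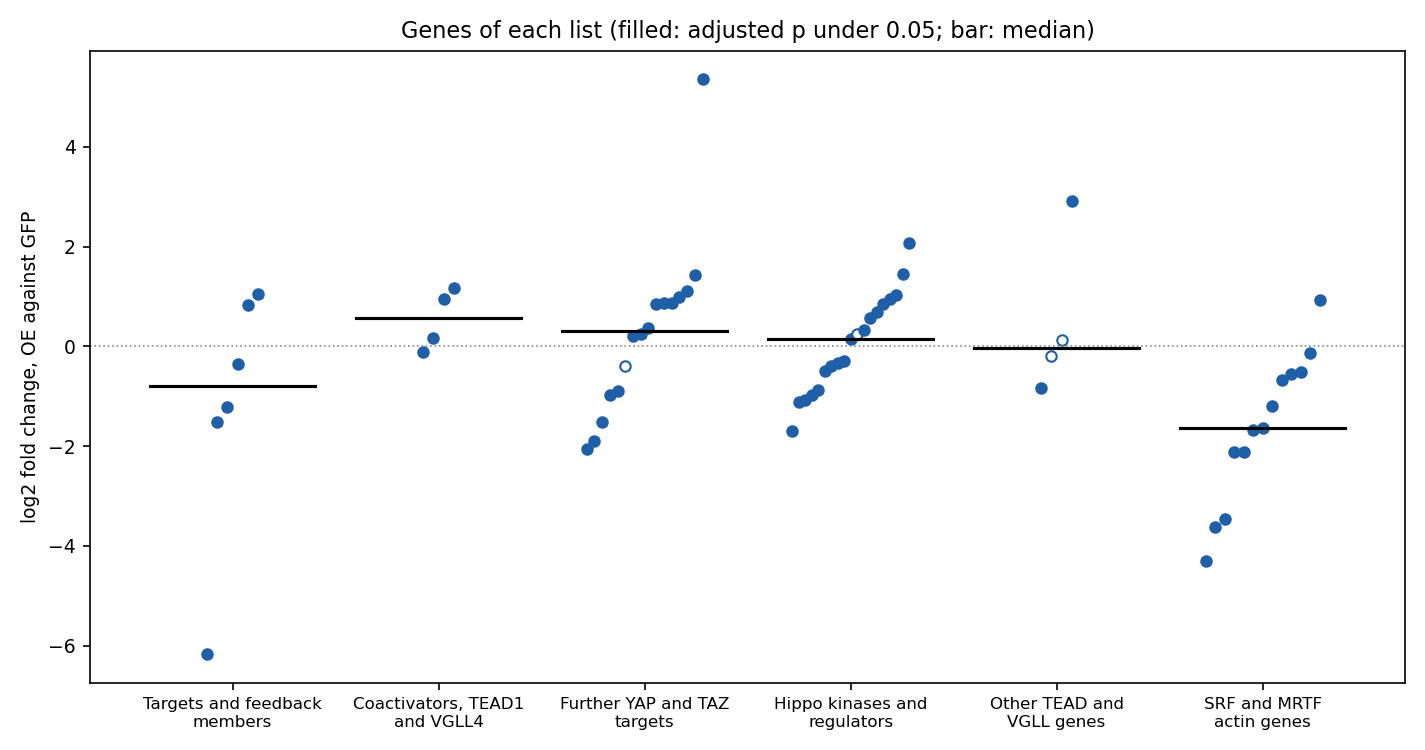
Log2 fold change in OE against GFP of every tested gene of 6 lists, filled where the edgeR adjusted p was under 0.05, with a bar at each list's median. The 13 SRF and MRTF actin genes have a median of −1.63, whereas the 19 Hippo regulators have a median of 0.15 with genes on both sides of 0.

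The genes whose pattern over the 12 libraries was most like that of Ccn2, by Pearson's r in log2 CPM among 8645 genes with a mean of at least 10 CPM, were Hdac1 (0.998), Cfl1 (0.997), Cdkn2aipnl (0.997), Xirp2 (0.996) and Snrpc (0.995). The libraries fall into 4 groups, so r describes the order of 4 group means. Cfl1, cofilin 1, which severs actin filaments, was at 205, 213, 674 and 288 CPM in WT, KO, GFP and OE. Xirp2, an actin-binding protein of muscle, was at 0 CPM in WT and KO, 45.9 CPM in GFP and 2.17 CPM in OE.

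Markers of other liver cells moved beside these results. The summed level of 8 cholangiocyte markers was 47.1 to 61.5 CPM in WT and 592 to 798 CPM in KO, most of it Spp1 at 590.7 ± 85.8 CPM (SD). Sox9 was also higher in KO, from 14.1 ± 3.18 to 56.2 ± 23.2 CPM (log2 2.02 ± 0.32 SE, edgeR adjusted p = 0.0335), and Krt19 was near 0 at 0.176 CPM. The sum of the 8 cholangiocyte markers was 66.7 to 72.2 CPM in GFP and 38.7 to 42.7 CPM in OE. The summed level of 10 stellate cell and fibroblast markers was 8.2 to 17 CPM in the WT libraries and 23.6 to 34.6 CPM in the KO libraries. It was 5.79 to 7.34 CPM in GFP against 25.8 to 26.3 CPM in OE. Most of this sum in KO and OE was Reln, at 21.5 ± 4.32 and 18.8 ± 0.716 CPM (SD). Reln was at 6.89 ± 1.85 CPM in WT and 3.86 ± 0.879 CPM in GFP. Of the 10, 1 was at 0 in all WT libraries and 1 in all OE libraries. Sums of 10 endothelial markers lay between 24.4 and 71.4 CPM in all libraries, and those of 9 macrophage markers at 4.75 to 60.3 CPM in WT and KO, at 79 to 87.7 CPM in GFP and at 67.1 to 75.4 CPM in OE, with 3 of the 9 at 0 in all GFP libraries. Nearly all of the sum in GFP and OE was Cd68, at 83.2 ± 4.25 and 70.1 ± 4.26 CPM, and of 4 macrophage markers tested in GFP against WT Cd68 was higher and Clec4f, Csf1r and Cd5l were lower. The part of these cells in the levels of the 10 genes was not tested.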

How the data were processed

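Poly(A) RNA of primary hepatocytes was made into 12 stranded libraries and sequenced. Per the labels, the authors used Trimmomatic 0.36, STAR 2.5.1 and RSEM 1.2.22 with the mouse build mm10, and name Picard 1.84 and DESeq2 without a role. The strand setting of the counting is not given in the sources used here. For each gene the deposited tables hold expected counts from RSEM, estimates of read number without scaling. TPM, scaled by the authors to effective length, stands beside them in the deposited tables, with the abundance-weighted transcript length in bases. All 55450 identifiers matched GENCODE M21, which gave coordinates.

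Expected counts were rounded, filtered with filterByExpr (minimum count 10, minimum total 15), scaled by TMM and tested with the quasi-likelihood F test of edgeR 4.0.16 in R 4.3.3, each comparison on its own 6 libraries and the difference of both effects on 12, and p values were adjusted (Benjamini-Hochberg) over every gene tested. Calls needed an adjusted p under 0.05. The floor for a group at 0 is 3 counts over the group and covers counting error only. Replicates differed beyond sampling noise in every pair. Samples of equal number did not deviate together (correlations −0.39 to 0.087), so the numbers were not taken to pair them.

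Alternatives were DESeq2 1.42.0, DESeq2-type size factors, library totals, no filter, a filter raised to a mean of 5 CPM with 1 CPM in at least 3 libraries, limma 3.58.1 on log2(TPM + 1) and on log2(TPM + 0.1) where the mean TPM reached 1, a replicate block, 1 fit of all 12 libraries, and leaving out each library. The pipeline was tested on simulated data.

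The 10 genes and the gene lists were chosen with earlier results of these data known, and no list is independent evidence. Named genes are the 10, Cebpa, from each of 4 pathway lists the 3 with the lowest p in KO against WT and in OE against GFP, and the 5 most like Ccn2, leaving out provisional symbols. Others are named as chosen after their values were seen or as cell type markers. No set test was run.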

Additional observations from a re-analysis of the deposited data

Results flagged for a closer look

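For 9 of the 10 genes the effect of Cebpa gain, OE against GFP, differed from that of Cebpa loss, KO against WT, by the edgeR test of the difference itself in the fit of all 12 libraries. Over all 15326 genes tested, 25.9% were higher and 28.1% lower by this test. Ankrd1, the ninth, has no estimate, since it was at 0 in all WT libraries. On the log2 scale the difference was −7.67 for Ccn2, −1.90 for Ajuba and −0.91 for Tead1. It was 1.76 for Wwtr1, 1.199 for Lats2, 1.16 for Amotl2, 0.91 for Yap1 and 0.44 for Vgll4. The value for Ccn2 rests on 11 counts in WT and 30 in KO. For Tead1 the direction turned on the TPM scale, to 0.38 with limma on log2(TPM + 1), and the transcript length of Tead1 was 33.8% lower in OE than in GFP.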

How the results depend on the processing

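In KO against WT, where edgeR called 0 of the 8 tested genes, DESeq2 called 2, library totals 1, no filter 1 and the fit of all 12 libraries 3, and leaving out single libraries gave 0 to 1, with Tead1 called without KO replicate 3. Over all genes, the calls in that comparison were 203, against 625 with DESeq2, 324 with no filter, 91 with the stricter filter, 104 and 74 with limma on log2(TPM + 1) and log2(TPM + 0.1), 1205 in the fit of all 12 libraries, and 42 to 396 when 1 library was left out (396 without KO replicate 3). The number of the 10 genes called in OE against GFP, in GFP against WT and for the difference of effects stayed within 1.5 times of its value under every alternative run. With the replicate block 0, 10, 9 and 9 genes were called in KO against WT, OE against GFP, GFP against WT and the difference, while calls over all genes in KO against WT went from 203 to 87; this pairing follows numbers only, and in WT and KO no library correlated best with its own number. Directions turned for Yap1 in KO against WT without KO replicate 2 (range over single libraries left out −0.011 to 0.109), for Vgll4 in OE against GFP with library totals (0.023) and limma (0.13 and 0.13), for Tead4 there with limma (0.056 and 0.068), and for Tead1 in the difference with limma (0.38 and 0.15); the cause was not tested. In the fit of all 12 libraries Ccn1, Tead1, Vgll4 and Tead2 missed the threshold in OE against GFP (adjusted p = 0.168, 0.255, 0.189 and 0.143). With limma on log2(TPM + 1) the share of calls that were higher went from 50.7% to 63.7% in OE against GFP, from 47.9% to 66.8% in the difference, from 53.9% to 85.9% in GFP against WT and from 40.4% to 28.8% in KO against WT. Library totals moved the median of all genes in OE against GFP from 0.01 to 0.15. Of the other values, 884 kept their direction and side of the threshold, 24 fell short of it and 24 newly passed. Counts of 30 or fewer per group limit Ccn2 and Ankrd1 in WT and KO.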
